A study of Mus musculus with 4 samples.

Results

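Interferon response genes are the genes that cells switch on when interferons bind their receptors. A list of 43 such genes was matched to the deposited count table by exact gene name, and 40 of the 43 were found among its 20837 genes. Mx1, Mx2 and Ddx58 were absent under those names. The listed genes were read in 4 RNA libraries of regulatory T cells (Treg cells, a suppressive CD4 lineage defined by the transcription factor Foxp3) of the mouse spleen. In 2 libraries, called WT, the genotype was Foxp3YFP-CreKmt2d+/+, and in the other 2, called cKO, it was Foxp3YFP-CreKmt2dfl/fl. All 4 therefore carry a Cre recombinase and a yellow fluorescent protein driven from Foxp3, and the groups differ in the loxP-flanked alleles of Kmt2d, a histone H3 lysine 4 methyltransferase. No treatment, age, sex or number of mice per library is given for these cells. The labels' extraction text is about cultured macrophages of a different knockout and is at odds with their fields for tissue, cells and genotype, which were used for grouping. Whether libraries of one group stem from different mice is not said. The p-values therefore measure only library-to-library spread, which may be technical.

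Type I interferons (alpha and beta) signal through the receptor chains IFNAR1 and IFNAR2 and the kinases JAK1 and TYK2. They activate a complex that holds STAT2 and IRF9 and binds the interferon-stimulated response element (ISRE) of antiviral genes such as the Ifit, Oas and Mx families. Interferon gamma signals through IFNGR1, IFNGR2, JAK1 and JAK2 to gamma activated sites (GAS) and induces IRF1, guanylate binding proteins (Gbp genes) and immunity-related GTPases (Igtp, Iigp1 and Irgm genes). The 2 programmes share many targets, since type I interferon also induces the GTPases. In Treg cells interferon signals are known to modulate suppressive function and, for interferon gamma, a Th1-like state.

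Total counts ranged from 28442416 to 35560491 per library, and all 40 listed genes in the table passed the filter on low counts. Levels are CPM (counts scaled to a common library total, with TMM factors), given as mean ± SD over n = 2 libraries or for WT 1, WT 2, cKO 1 and cKO 2 in that order. Calls are from edgeR's quasi-likelihood test over all 13861 genes that passed, 2-sided, at a Benjamini-Hochberg adjusted p under 0.05, and SE is the standard error of a log2 fold change of cKO over WT. Kmt2d itself, read over the whole gene, measured 721, 704, 836 and 793 CPM. It was called higher in cKO (log2 fold change 0.19, SE 0.05, edgeR adjusted p = 0.0375), and so does not check the labels. The T cell marker Cd3e (378, 404, 392 and 367 CPM) and Foxp3 (278, 250, 170 and 180 CPM) were abundant in all 4 libraries. Foxp3 was nonetheless called lower in cKO (log2 fold change -0.59, SE 0.07, edgeR adjusted p = 0.00493). Of 8 Treg identity genes, Foxp3 included, 3 were called lower and 1 higher, and 4 did not pass. Cd3e was 1 of 2 pan T cell markers that did not pass: the other 7 of 9 fell, with a median log2 fold change of -0.32 over the 9 and Thy1 lowest at -1.14, and the list's summed level was 4899 and 4839 CPM in WT and 3766 and 3972 CPM in cKO. Transcripts of other cells were also present and differed: all 13 neutrophil markers were called higher, with a summed level of 80.4 and 206 CPM in WT and 653 and 1383 CPM in cKO. Of 8 basophil markers 7 were called higher (sums of 4.35 and 8.01 CPM in WT and 27.5 and 47.7 CPM in cKO), and of 10 NK and CD8 T cell markers 9 (sums of 170 and 202 CPM in WT and 294 and 307 CPM in cKO). Of 6 B cell markers tested, 1 was called higher and the others did not pass, with a median log2 fold change of 0.76. Their sums were 103 and 125 CPM in WT and 134 and 234 CPM in cKO. The part of these shifts in the results on interferon genes was not tested. In bulk RNA, fewer cells of a type and less RNA per cell cannot be told apart.

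Most listed genes that moved did so by less than 1.5-fold, and the rises stood mainly among the GTPases. Of the 40 genes, 11 rose in cKO, 5 fell and 24 did not pass, which is 40% called beside 31.6% of all genes tested (16.5% higher and 15.1% lower). The 12 interferon gamma GTPases held 7 of the 11 rises, and Gbp9 was their 1 gene with a negative value. With DESeq2 they held 5 of 8 rises. None of the 12 fell by edgeR, DESeq2 or limma-voom. Among the 9 type I targets of the Ifit and Oas families in the table, 1 rose, 1 fell and 7 did not pass. Among 6 regulators and sensors, 1 fell, and among 13 other effectors, 3 rose and 3 fell. The median log2 fold change was 0.23 over the GTPases and 0.11 over the type I targets, beside 0.0003 over all genes tested. No test of the difference between the 2 groups of genes was made. Counts of calls also depend on the spread between libraries, which was wider in the type I targets. On the log2(CPM + 0.5) scale, the median distance between WT 1 and WT 2 was 0.22 over them and 0.06 over the GTPases. Oas2 (log2 fold change 0.27) and Oasl1 (0.22) did not pass, while Irgm1 (0.25) and Igtp (0.21) did. The part of this spread in the counts was not tested. The count of rises was 6 or 7, and that of falls 2 or 3, when any 1 of the 4 libraries was left out.

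**Figure D1:**
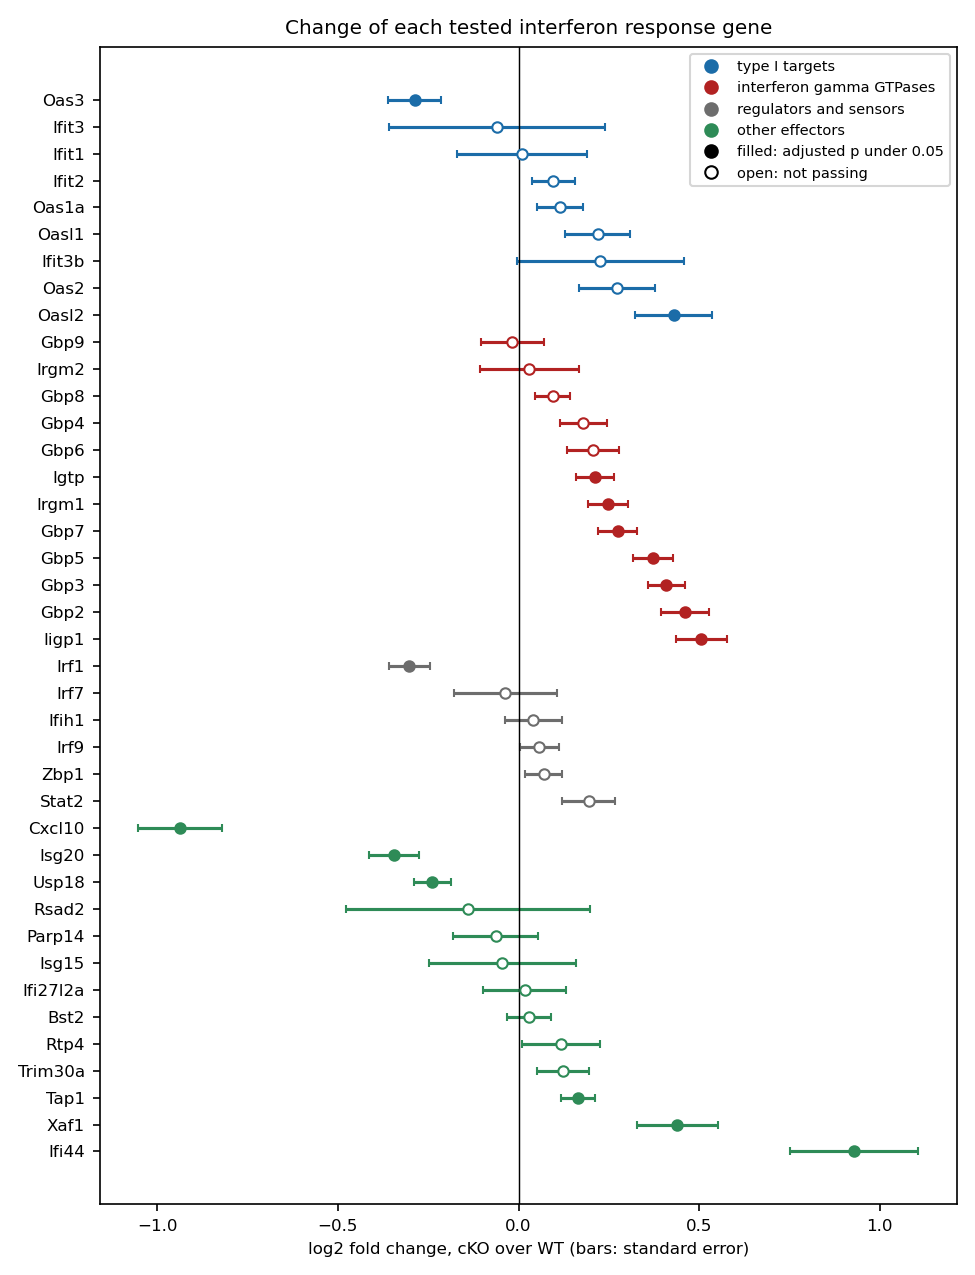
Log2 fold change of cKO over WT (x axis) for each of the 40 listed genes tested, grouped by role, with bars for the standard error; filled points passed an edgeR adjusted p of 0.05. The red GTPase points lie to the right of 0 except Gbp9 (-0.02), while the blue type I targets run from -0.29 (Oas3) to 0.43 (Oasl2).

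The 2 response motifs were looked for near the starts of those listed genes that had a promoter window. RefSeq (GRCm38.p6, the assembly of mm10) gave promoter windows, 250 bases before to 50 after an annotated gene start, for 30 listed genes with 37 start sites. Both strands were searched for the ISRE core, GAAA followed by any 2 bases and a second GAAA, and the GAS core TTCNNNGAA, which may overlap each other, as they do in the Bst2 promoter. The ISRE core was found in 21 of the 37 windows (56.8%), beside 3.44% of all 32851 windows in the reference table. The GAS core was found in 9 of the 37 (24.3%), beside 8.3% of all windows. Of the 7 GTPase genes with a window, all 7 held the ISRE core and 4 (Gbp5, Gbp7, Igtp and Irgm2) also the GAS core. The 7 were these 4 with Gbp2, Gbp3 and Irgm1, and all but Irgm2 were called higher. Gbp4, Gbp6, Gbp8, Gbp9 and Iigp1 had no window, so the motifs cannot be set against the calls of the GTPases. Of the 8 type I targets with a window, 5 held the ISRE core, 2 the GAS core and 1, Oas1a, both. A match is a run of letters and does not show binding. A window without a match does not show that the gene lacks the motif elsewhere or in a variant form.

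The 250 bases before the start are printed 5′ to 3′ on each gene's own strand for 4 GTPase genes that rose, 2 type I targets and 2 genes that fell, with motif matches in capitals. They were chosen, with values known, to show an ISRE core alone, both cores side by side, and a GAS core alone. The windows are chr3:142620413-142620662, chr3:142496684-142496933 and chr3:142530086-142530335 (plus strand), chr11:58199306-58199555 (plus), chr19:34640639-34640888 (plus), chr5:120777660-120777909 (minus), chr5:92348890-92349139 (minus) and chr11:53769764-53770013 (plus).
Gbp2: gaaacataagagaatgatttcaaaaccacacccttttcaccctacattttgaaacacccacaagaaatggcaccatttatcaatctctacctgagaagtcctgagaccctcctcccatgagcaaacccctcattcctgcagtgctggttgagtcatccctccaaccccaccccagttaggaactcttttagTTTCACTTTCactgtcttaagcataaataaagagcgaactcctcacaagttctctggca
Gbp5: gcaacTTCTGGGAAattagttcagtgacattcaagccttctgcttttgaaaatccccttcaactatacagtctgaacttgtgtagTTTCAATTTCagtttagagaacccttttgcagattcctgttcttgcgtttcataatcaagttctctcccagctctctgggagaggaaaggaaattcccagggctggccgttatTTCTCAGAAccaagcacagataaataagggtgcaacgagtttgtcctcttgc
Gbp7: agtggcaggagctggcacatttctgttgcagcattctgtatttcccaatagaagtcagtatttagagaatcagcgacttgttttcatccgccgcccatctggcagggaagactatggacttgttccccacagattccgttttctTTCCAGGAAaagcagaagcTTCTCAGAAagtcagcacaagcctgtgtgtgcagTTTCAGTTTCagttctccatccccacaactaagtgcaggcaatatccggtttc
Igtp: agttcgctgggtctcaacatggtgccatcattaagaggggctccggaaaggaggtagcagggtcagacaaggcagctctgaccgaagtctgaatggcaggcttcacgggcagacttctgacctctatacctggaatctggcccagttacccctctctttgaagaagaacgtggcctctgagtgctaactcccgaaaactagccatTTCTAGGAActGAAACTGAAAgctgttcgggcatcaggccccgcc
Ifit1: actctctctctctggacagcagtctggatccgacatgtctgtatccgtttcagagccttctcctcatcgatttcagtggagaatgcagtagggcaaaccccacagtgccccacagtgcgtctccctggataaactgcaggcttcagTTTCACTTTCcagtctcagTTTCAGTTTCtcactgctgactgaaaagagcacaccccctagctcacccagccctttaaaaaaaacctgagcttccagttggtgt
Oas3: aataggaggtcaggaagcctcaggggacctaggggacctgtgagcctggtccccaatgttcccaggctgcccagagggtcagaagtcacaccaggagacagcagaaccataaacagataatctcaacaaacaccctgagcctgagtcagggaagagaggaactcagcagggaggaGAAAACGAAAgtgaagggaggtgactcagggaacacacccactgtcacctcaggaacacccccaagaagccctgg
Cxcl10: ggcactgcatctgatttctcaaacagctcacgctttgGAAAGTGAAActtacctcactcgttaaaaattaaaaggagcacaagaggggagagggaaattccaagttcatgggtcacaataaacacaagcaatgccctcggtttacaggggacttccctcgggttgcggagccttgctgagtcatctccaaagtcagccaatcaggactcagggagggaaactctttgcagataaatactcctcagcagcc
Irf1: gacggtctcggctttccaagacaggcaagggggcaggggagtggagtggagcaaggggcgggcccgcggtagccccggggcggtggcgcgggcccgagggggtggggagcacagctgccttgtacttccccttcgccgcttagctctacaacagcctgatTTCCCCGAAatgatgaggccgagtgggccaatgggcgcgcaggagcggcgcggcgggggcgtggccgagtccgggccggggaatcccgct
In Igtp the GAS core begins 45 bases and the ISRE core 34 bases before the start, and Irgm2 holds the same pair at 75 and 64 bases. Gbp7 has GAS cores at 106 and 87 bases and an ISRE core at 53. Ifit1 has 2 ISRE cores, at 104 and 85 bases, and no GAS core in this window. The window of Irf1 holds a GAS core at 90 bases and no ISRE core, and that of Cxcl10 an ISRE core at 213 bases.

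**Figure D2:**
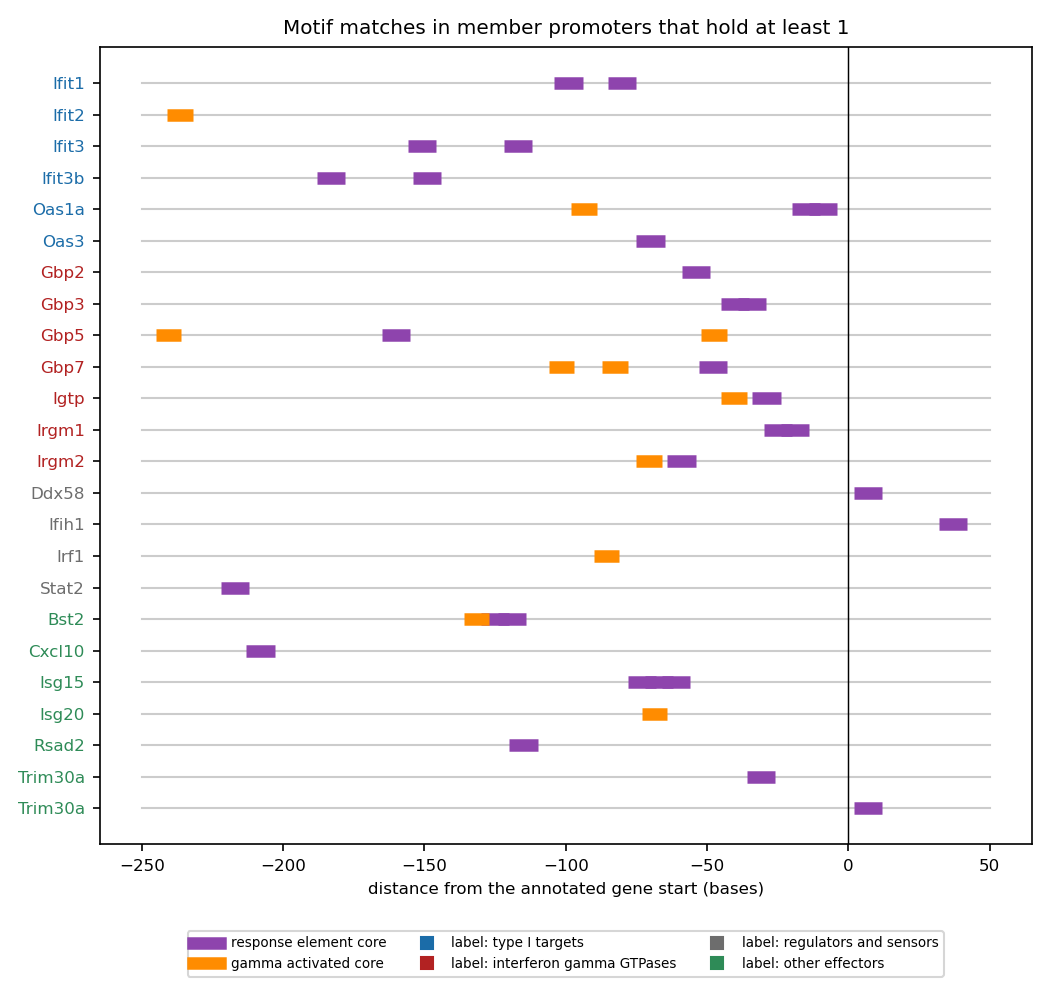
Position of each ISRE core (purple) and GAS core (orange) relative to the annotated gene start (x axis, in bases) in every promoter window of a listed gene that holds at least 1; label colours give the gene's role. In Igtp and Irgm2 the 2 cores lie side by side, and the Ifit genes with an ISRE core have 2 each.

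Guanylate binding proteins are large GTPases that coat and disrupt membranes of intracellular pathogens. Gbp2 rose, with 113 ± 5.28 CPM in WT and 156 ± 9.96 CPM in cKO (log2 fold change 0.46, SE 0.07, edgeR adjusted p = 0.00658). Its 4 values were 110, 117, 163 and 149 CPM, and both cKO libraries lay above both WT libraries. Gbp3 measured 69.9, 67.2, 92.0 and 90.1 CPM (log2 fold change 0.41, SE 0.05, edgeR adjusted p = 0.00541). Gbp5, which also takes part in inflammasome activation, measured 57.1, 59.6, 77.4 and 73.7 CPM and rose by 0.37 (SE 0.05, edgeR adjusted p = 0.00689). Gbp7 measured 157, 153, 193 and 181 CPM and rose by 0.27 (SE 0.05, edgeR adjusted p = 0.0148), again without overlap of the groups. The calls of Gbp2, Gbp3 and Gbp5 held without any 1 library. That of Gbp7 was lost without WT 1 (edgeR adjusted p = 0.0585), WT 2 (0.0695) or cKO 1 (0.102).

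These 4 risers are neighbours on chromosome 3, within 144.0 kb from 142493978 to 142638008 in mm10 (GENCODE M21). The other 4 Gbp genes of the list lie on chromosome 5, within 279.5 kb from 105014150 to 105293698, and none of them passed in edgeR, DESeq2 or limma-voom, with unadjusted edgeR p under 0.05 for Gbp4 and Gbp6 alone. Gbp4 measured 220, 202, 247 and 231 CPM (log2 fold change 0.18, SE 0.06, edgeR adjusted p = 0.0855). Gbp6 measured 123, 108, 135 and 131 CPM (0.21, SE 0.07, edgeR adjusted p = 0.0810). Both cKO libraries lay above both WT libraries for either gene, and Gbp6 passed with upper-quartile scaling (edgeR adjusted p = 0.0460), with no filter (0.0461) and without WT 1 (0.0448). Gbp8 had 94.5, 96.3, 103 and 101 CPM (log2 fold change 0.09, SE 0.05). Gbp9 had 231, 197, 203 and 220 CPM, with overlapping groups (log2 fold change -0.02, SE 0.09). The Gbp genes of one chromosome are close copies, and Gbp4, Gbp8 and Gbp9 share annotated exon bases, so counts could be split between them and single values are uncertain. Those shared stretches are 60 or 61 bases long. Longer overlaps on the same strand are those of Gbp6 with Gm43302 (1726 exon bases) and of Gbp7 with the pseudogene Gm43802 (637). Neither Gm43302 nor Gm43802 has a row in the count table. Whether the chromosome 3 and chromosome 5 genes differ from each other was not tested.

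Immunity-related GTPases act on vacuoles that hold pathogens. Iigp1, an effector of this family, rose from 55.4 ± 1.49 to 78.7 ± 6.44 CPM, the largest log2 fold change among the 12 GTPases (0.51, SE 0.07, edgeR adjusted p = 0.00623). Its libraries read 54.4, 56.5, 83.3 and 74.2 CPM and its call held without any 1 library. Irgm1, a regulator that protects the cell's own membranes, measured 74.4, 76.7, 92.5 and 87.0 CPM (log2 fold change 0.25, SE 0.06, edgeR adjusted p = 0.0216). Its call ended with DESeq2 (adjusted p = 0.0542) and, in edgeR, without WT 1 (0.103), WT 2 (0.0602) or cKO 1 (0.136). Igtp, a second such regulator, measured 171, 167, 202 and 190 CPM (0.21, SE 0.05, edgeR adjusted p = 0.0294), and its call ended with DESeq2 (adjusted p = 0.0505) and without each library in turn (edgeR adjusted p from 0.0604 to 0.199). Irgm2 had 40.7, 48.3, 51.1 and 39.9 CPM, with overlapping groups (0.03, SE 0.14). Igtp and Irgm2 lie on chromosome 11 and share 162 annotated exon bases on the same strand. Over the 12 GTPases, 10 had both cKO libraries above both WT libraries, beside 35.1% of all genes tested, and 0 had both below, beside 30.9%. Of the 9 type I targets, 5 had both cKO libraries above both WT libraries and 1 had both below.

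Ifit proteins bind foreign RNA and block its translation. None of the 4 Ifit genes, neighbours on chromosome 19 (34550694 to 34650009), passed the test in edgeR, DESeq2 or limma-voom, and 0 of 4 had an unadjusted edgeR p under 0.05. Ifit1 measured 29.1, 23.3, 22 and 30.6 CPM (log2 fold change 0.01, SE 0.18, edgeR adjusted p = 0.978). Ifit3 measured 28.6, 19.8, 16.5 and 29.8 CPM (-0.06, SE 0.30), and its close copy Ifit3b 4.44, 3.28, 3.78 and 5.24 CPM (0.23, SE 0.23). In all 3 the highest library was cKO 2, followed by WT 1, so the groups overlapped. Ifit2 was steadier, at 74.8, 69.0, 75.7 and 78.1 CPM (0.10, SE 0.06). For Ifit1 and Ifit3 the sign of the fold change depends on the library left out, with a range of -0.25 to 0.22 for Ifit1 and of -0.56 to 0.29 for Ifit3. Reads of Ifit3 and Ifit3b could have been split between the copies.

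Oas enzymes make 2′-5′ linked oligoadenylates that activate the nuclease RNase L, and the Oasl proteins are related. Oas3 fell, with a WT mean of 73.7 ± 4.73 CPM and a cKO mean of 60.4 ± 4.13 CPM (log2 fold change -0.29, SE 0.07, edgeR adjusted p = 0.0321). The 4 values were 70.4, 77.1, 63.3 and 57.5 CPM. Oasl2 rose, from 23.1 and 19.1 CPM to 27.3 and 29.6 CPM (log2 fold change 0.43, SE 0.11, edgeR adjusted p = 0.0291). The Oas3 call ended without WT 1 (edgeR adjusted p = 0.0522), WT 2 (0.127) or cKO 2 (0.152), and that of Oasl2 without WT 2 (0.0932), cKO 1 (0.0575) or cKO 2 (0.116). Oas1a (42.2, 38.9, 42.9 and 44.8 CPM), Oas2 (32.4, 27.8, 33.8 and 39.0 CPM) and Oasl1 (11.2, 10.4, 12.5 and 12.5 CPM) did not pass, with log2 fold changes of 0.11, 0.27 and 0.22. In each of these 3 both cKO libraries lay above both WT libraries. Oas2, Oas3 and Oas1a are neighbours on chromosome 5 (120730333 to 120907521), so that the fall of Oas3 stands between 2 genes with positive values. Oas2 passed when no filter on low counts was used (edgeR adjusted p = 0.0374). Mx1 and Mx2, annotated on chromosome 16, have no row in the table, and RefSeq lists both as transcribed pseudogenes in this assembly, whereas GENCODE M21 types Mx1 as protein coding and Mx2 as a polymorphic pseudogene.

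**Figure D3:**
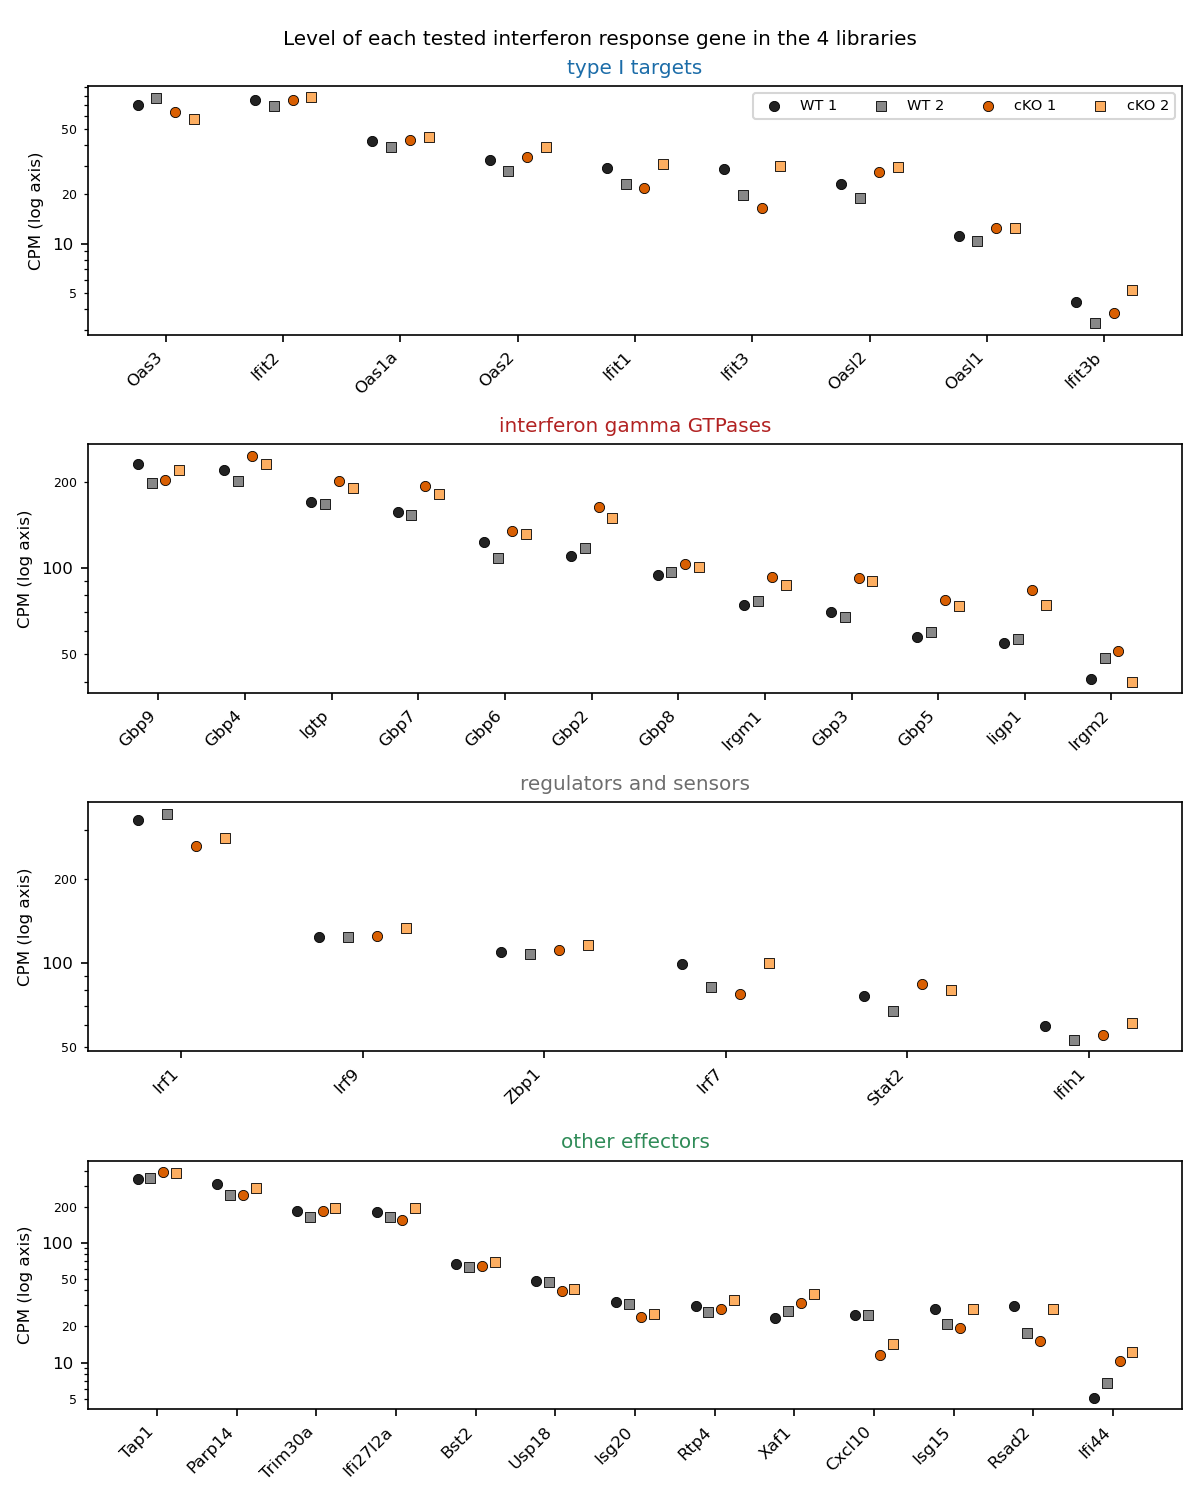
Level of each of the 40 listed genes (CPM, log axis) in WT 1, WT 2, cKO 1 and cKO 2, in panels by role and ordered by WT mean. In the GTPase panel the orange cKO points sit above the black and grey WT points for 10 of 12 genes, whereas Ifit3 and Rsad2 are high in WT 1 and cKO 2 and low in WT 2 and cKO 1.

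The regulators that carry the interferon signal did not move together. Irf1, a transcription factor induced through the GAS site, fell, with 334 ± 11.6 CPM in WT and 271 ± 12.6 CPM in cKO (log2 fold change -0.30, SE 0.06, edgeR adjusted p = 0.0126). Its libraries read 326, 342, 262 and 280 CPM. The call ended without WT 2 (edgeR adjusted p = 0.0567) or cKO 1 (0.0718). Stat2, a subunit of the ISRE complex, measured 76.1, 67.2, 84.0 and 80.1 CPM and did not pass (log2 fold change 0.19, SE 0.07, edgeR adjusted p = 0.0984). Irf9, the DNA-binding subunit of that complex, measured 124, 124, 125 and 133 CPM (0.06, SE 0.05). Irf7, which amplifies type I interferon production, had 99.5, 82.2, 77.4 and 99.8 CPM, with overlapping groups (-0.04, SE 0.14).

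The nucleic acid sensors of the list did not pass. Ifih1 (MDA5, a sensor of long double-stranded RNA) measured 59.7, 53.1, 55.1 and 60.9 CPM. Zbp1, a sensor of Z-form nucleic acid, measured 109, 108, 111 and 116 CPM (log2 fold change 0.07, SE 0.05). The gene number that RefSeq gives to Ddx58 (RIG-I) stands in the table under the name Rigi, which the exact-name rule does not count. Rigi measured 138, 130, 127 and 134 CPM, with overlapping groups (log2 fold change -0.03, SE 0.06).

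Among the other effectors, the chemokine gene Cxcl10, whose product attracts CXCR3-bearing T cells, had the largest fall of the list. Its mean was 24.8 ± 0.147 CPM in WT and 12.9 ± 2.01 CPM in cKO (log2 fold change -0.94, SE 0.12, edgeR adjusted p = 0.00524). The libraries read 25.0, 24.7, 11.5 and 14.4 CPM, and the call held without any 1 library. Art3, on the opposite strand, shares 133 annotated exon bases with it and had a log2 fold change of -2.07 over 333 reads in all 4 libraries. Isg20, an RNA exonuclease, fell from 32.0 and 30.5 CPM to 23.8 and 25.5 CPM (-0.34, SE 0.07, edgeR adjusted p = 0.0161). Usp18, which removes ISG15 from proteins and dampens signalling at IFNAR2, fell from 47.8 and 47.1 CPM to 39.6 and 40.8 CPM (-0.24, SE 0.05, edgeR adjusted p = 0.0204). The Isg20 call ended without WT 1 (edgeR adjusted p = 0.0866) or cKO 1 (0.0865). That of Usp18 ended with DESeq2 (adjusted p = 0.0838) and without each library in turn (edgeR adjusted p from 0.0711 to 0.122).

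Ifi44, an interferon-induced gene of the cytoplasm, had the largest rise of the list. It measured 5.04, 6.79, 10.2 and 12.2 CPM (log2 fold change 0.93, SE 0.18, edgeR adjusted p = 0.0134), and the call ended without WT 1 (edgeR adjusted p = 0.0533). Xaf1, a proapoptotic gene, measured 23.7, 27.1, 31.3 and 37.4 CPM (0.44, SE 0.11, edgeR adjusted p = 0.0316), lost without WT 1 (0.141) or cKO 2 (0.117). Tap1, a peptide transporter subunit of class I antigen presentation, rose by 0.16 (SE 0.05, edgeR adjusted p = 0.0463), from 339 and 347 CPM to 389 and 379 CPM. Its call was lost with RLE scaling (edgeR adjusted p = 0.0628), without a filter (0.0596), with DESeq2 (adjusted p = 0.101) and without each library in turn (edgeR adjusted p from 0.117 to 0.257). Tap1 shares 212 annotated exon bases with Psmb9 on the opposite strand, and Psmb9 was called higher as well (0.36).

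The remaining 7 effectors did not pass. Isg15, the ubiquitin-like modifier, measured 27.9, 21.0, 19.4 and 27.9 CPM, and Rsad2 (viperin, which makes a chain-terminating nucleotide) 29.6, 17.7, 15.1 and 27.7 CPM. In both the groups overlapped, with WT 1 and cKO 2 high. Bst2 (tetherin, which holds budding virions), Ifi27l2a, Rtp4, Parp14 (an ADP-ribosyltransferase) and Trim30a had log2 fold changes between -0.06 and 0.12.

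How far the 2 libraries of a group lay apart depended on the genes. The median distance between WT 1 and WT 2 on the log2(CPM + 0.5) scale was 0.22 over the 9 type I targets and 0.06 over the 12 GTPases, beside 0.10 over all genes tested. Between the cKO libraries it was 0.14 and 0.09, beside 0.09. WT 1 lay above WT 2 and cKO 2 above cKO 1 at once in 7 of 9 type I targets and 10 of 13 other effectors, but in 1 of 12 GTPases, beside 31.5% of all genes tested. All 8 Treg identity genes followed the same order, among them Ctla4 with 1127, 741, 645 and 1002 CPM. WT 1 and cKO 2 also have the larger total count of their group. The part of depth or of cell content in this spread was not tested. SE values were largest for Rsad2 (0.34) and Ifit3 (0.30) among the 40 genes.

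**Figure D4:**
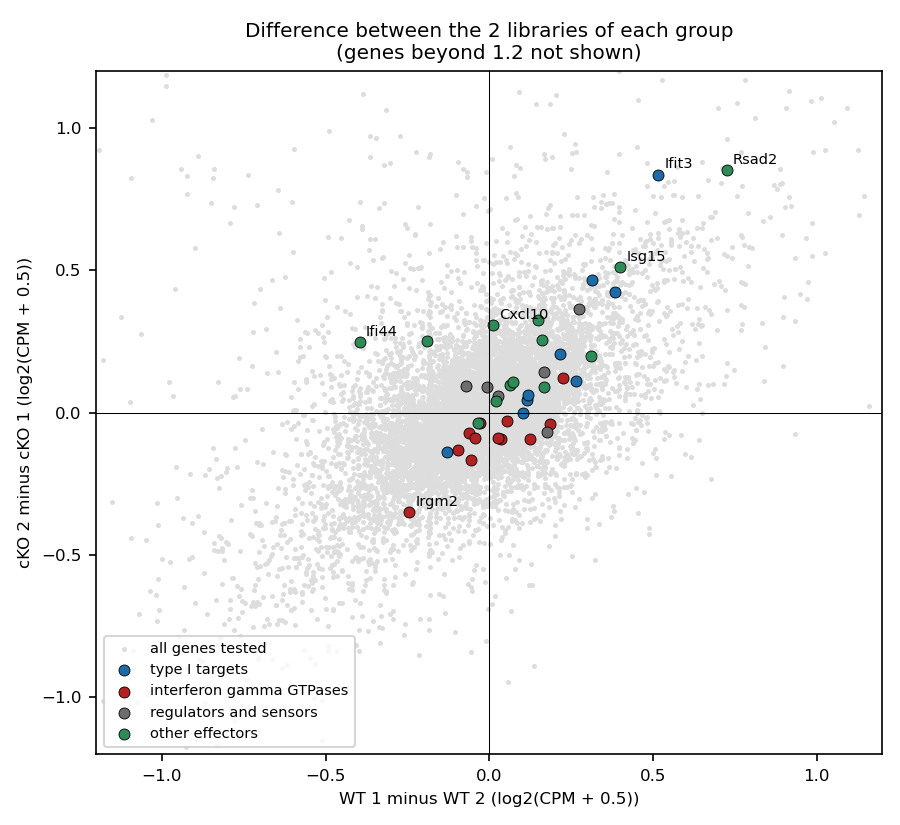
Difference between WT 1 and WT 2 (x axis) and between cKO 2 and cKO 1 (y axis), both on the log2(CPM + 0.5) scale, for the 40 listed genes by role and, in light grey, all genes tested (those beyond 1.2 are not shown). Rsad2, Ifit3 and Isg15 lie at the upper right, while the red GTPases stay near the centre, apart from Irgm2.

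Levels of different genes can be compared only per length of transcript, here as TPM from annotated exon length. Ifi27l2a was the most abundant listed gene, with 1415 ± 101 TPM in WT. Igtp (317 ± 3.30), Irf1 (319 ± 11.8), Bst2 (272 ± 9.0) and Tap1 (238 ± 4.48) followed, and Igtp and Irf1 did not differ beyond their spread. The highest type I target was Oas1a, at 81.7 ± 4.59 TPM. Ifi44 (3.67 ± 0.776) and Ifit3b (7.33 ± 1.53) were lowest in WT.

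Upstream of these targets, most receptor and kinase genes fell, while Ifng, the gene of interferon gamma, did not pass. Of 21 interferon genes listed, 18 had no row in the table. Ifng measured 34.8, 35.6, 36.8 and 37.9 CPM (log2 fold change 0.09, SE 0.06, edgeR adjusted p = 0.314). Ifnb1 had 2 counts in WT 1 and 0 in the other 3 libraries, where a count of 0 allows up to 0.0984, 0.103 and 0.0869 CPM. The 8 receptor and kinase genes that were tested gave 7 falls and 1 gene, Tyk2, that did not pass, a share called of 87.5% beside 31.6% of all genes tested (15.1% lower). Ifnlr1, a receptor chain for interferon lambda, had 2, 1, 5 and 29 counts and did not pass the low-count filter. The falls stood beside those of the pan T cell markers, and the part of cell content in them was not tested. Ifngr2 fell from 93.5 and 80.1 CPM to 44.4 and 51.9 CPM (-0.85, SE 0.11, edgeR adjusted p = 0.00541). Ifngr1 fell by 0.66 (SE 0.09) and Ifnar1 by 0.57 (SE 0.07), from 253 and 222 CPM to 159 and 160 CPM. These 3 calls, and that of the shared chain gene Il10rb (-0.38, SE 0.05), held without any 1 library. Ifnar2 (-0.19) and the kinase gene Jak2 (-0.20) lost their calls without each library in turn (edgeR adjusted p from 0.109 to 0.183 and from 0.0659 to 0.148). Jak1 (-0.26) did not pass once WT 1, cKO 1 or cKO 2 was removed (edgeR adjusted p = 0.0627, 0.0700 and 0.0662).

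The list of 13 negative regulators gave 6 falls and 1 rise, and the other 6 did not pass. The share called was 53.8%, beside 31.6% of all genes tested (16.5% higher and 15.1% lower). Pan T cell markers fell in the same libraries (median log2 fold change -0.32), and the part of cell content in the falls of the regulators was not tested. Socs3, a feedback inhibitor of JAK signalling, fell from 308 and 273 CPM to 90.9 and 135 CPM (-1.36, SE 0.18, edgeR adjusted p = 0.00574). The phosphatase genes Ptpn1, Ptpn2 and Ptpn11 fell by 0.36, 0.35 and 0.34, each called no longer without cKO 1 (edgeR adjusted p = 0.0530, 0.0562 and 0.0592), and Ptpn2 and Ptpn11 also not without WT 1 (0.0538 and 0.0592). The 1 that rose, Irf2 (0.23), lost its call without each library in turn (edgeR adjusted p from 0.0663 to 0.123).

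Among 18 nucleic acid sensing genes there were 3 rises and 4 falls, and 11 did not pass, a share called of 38.9% that is near the 31.6% of all genes tested. The endosomal receptor genes Tlr7, Tlr8 and Tlr9 rose by 0.44, 1.16 and 0.78, and the adaptor gene Sting1 fell by 0.48 (SE 0.05), from 166 and 169 CPM to 120 and 119 CPM. These 4 calls held without any 1 library. Ikbke (-0.22), Traf3 (-0.29) and Traf6 (-0.23) lost theirs without WT 1 (edgeR adjusted p = 0.105, 0.0679 and 0.133), cKO 1 (0.114, 0.0761 and 0.0921) or cKO 2 (0.0951, 0.0515 and 0.150). Beside the 3 Tlr genes, 6 of 9 conventional dendritic cell markers were called higher, with sums of 1323 and 1484 CPM in WT and 2069 and 1985 CPM in cKO. Siglech, a marker of plasmacytoid dendritic cells, measured 4.90, 5.68, 20.4 and 19.5 CPM, and 4 of 10 genes of that list were called higher and 1 lower. Of 12 macrophage and monocyte markers, Ly6c2 (23.3, 35.4, 87.7 and 84.9 CPM) rose and the other 11 did not pass, with a median log2 fold change of -0.28 over the 12. No marker of these lists was at 0 in both WT libraries. Their part in the rise of the Tlr genes and of the interferon targets was not tested.

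**Figure D5:**
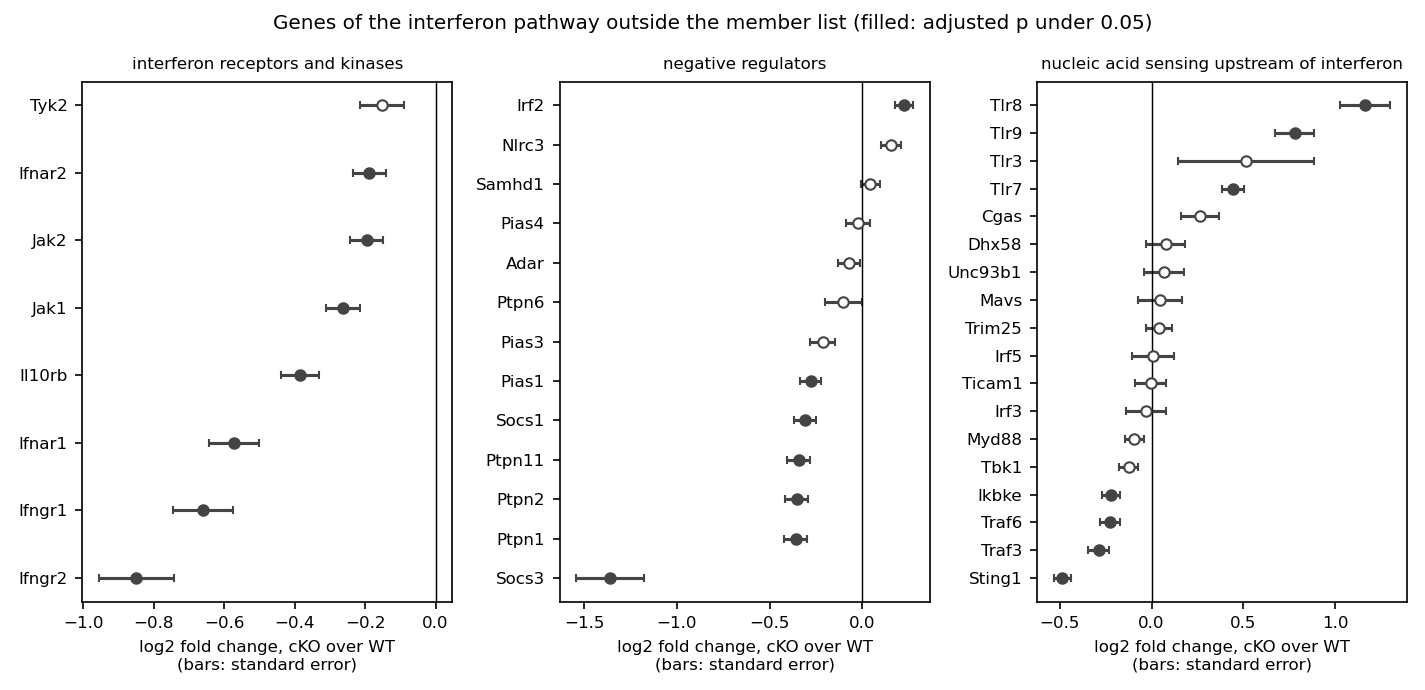
Log2 fold change of cKO over WT (x axis, bars for the standard error) for pathway genes outside the 43 listed, in 3 panels; filled points passed an edgeR adjusted p of 0.05. In the first panel all 8 genes lie to the left of 0, with Ifngr2 (-0.85), Ifngr1 (-0.66) and Ifnar1 (-0.57) farthest out.

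A wider list of 77 further interferon-induced genes that were tested gave 27 rises, 4 falls and 46 that did not pass (median log2 fold change 0.16), a share called of 40.3% beside 31.6% of all genes. The rises with the smallest p were the antiviral membrane protein gene Ifitm3 (22.2, 23.9, 47.0 and 44.2 CPM, log2 fold change 0.98), the DNA-binding gene Ifi204 (1.23), Gbp2b (1.59) and the GTPase gene Tgtp2 (0.57). Gbp2b, another Gbp gene, measured 4.61, 5.55, 17.0 and 13.5 CPM. Those 4 calls held without any 1 library. The 4 falls were Ifit1bl1 (-0.80), Cd274 (the checkpoint ligand PD-L1, -0.50), Slfn5 (-0.40) and Shisa5 (-0.21), the last lost without each library in turn (edgeR adjusted p from 0.0831 to 0.184). Cxcl9, the gene of a second CXCR3 ligand, measured 5.36, 6.10, 11.5 and 9.64 CPM and rose (0.88, SE 0.14, edgeR adjusted p = 0.00822), opposite in sign to Cxcl10. It was named after its values were seen.

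In class I antigen presentation, 4 of 18 genes rose and the other 14 did not pass (median log2 fold change 0.03). The share called, 22.2%, was below the 31.6% of all genes tested. H2-T22 rose by 0.32, the immunoproteasome gene Psmb9 by 0.36, the peptidase gene Erap1 by 0.30 and H2-M3 by 0.21. Erap1 did not pass once WT 1 or cKO 1 was removed (edgeR adjusted p = 0.0663 and 0.0795), and H2-M3 lost its call with DESeq2 (adjusted p = 0.180) and without each library in turn (edgeR adjusted p from 0.0765 to 0.158). The class I heavy chain genes H2-K1 and H2-D1 and the light chain gene B2m had log2 fold changes of -0.08, -0.08 and 0.06 and did not pass.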

How the data were processed

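RNA-seq libraries of 4 samples (2 WT, 2 cKO) were grouped by their titles and genotype labels. The authors deposited 1 table of raw whole-number counts per gene, with mm10 as the genome build per the submitters' processing notes. Which aligner, counter and annotation release were used, and whether strand was read, is not given in the sources used here. The low-count filter was filterByExpr (count of 10 or more, total of 15 or more), and groups were compared with edgeR 4.0.16 in R 4.3.3 (TMM, glmQLFit, glmQLFTest, group alone). Adjusted p-values cover all genes tested. SE is the absolute log2 fold change over the square root of F. One read corresponds to 0.0288 to 0.0344 CPM, and the floor is 3 counts, which cover counting error only. The fit was tested on simulated data. TPM used the union of GENCODE M21 exons, matched by symbol for 83.6% of genes.

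All 43 members were named, and of each pathway list up to 4 called genes per direction with the smallest p. Jak1, Jak2, Ifnar2 and the other pathway and marker genes named beyond that were chosen after their values were seen. One gene was left out of the pathway lists and is not reported here. Members and lists were chosen with earlier results of these data known. Alternatives were DESeq2 1.42.0, other filters, RLE or upper-quartile factors, limma-voom 3.58.1, a threshold of 0.10, the replicate number as a block, and leaving out each library.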

Additional observations from a re-analysis of the deposited data

How the results depend on the processing

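Among all genes tested, 2292 rose and 2088 fell. DESeq2 called 1301 rises. With the replicate number as a block the counts were 1151 and 1141, and leaving out 1 library gave 886 to 1375 and 983 to 1372. For the listed genes, 11 rises became 7 and 5 falls became 2 with the replicate block, and 6 to 7 and 2 to 3 without 1 library. The type I targets had 2 rises with no filter, 0 rises and 0 falls with the replicate block, and 0 to 1 of each without 1 library. The GTPases kept 4 to 6 rises without 1 library. The calls that ended with the replicate block were those of Oasl2, Igtp, Irgm1, Tap1, Oas3, Isg20 and Usp18 (edgeR adjusted p from 0.0681 to 0.176). Same-numbered libraries deviated in opposite directions (r = -0.414 across 13861 genes, which are not independent replicates). Across the 40 listed genes r was -0.715, and the labels do not pair the libraries. With the numbers crossed, an alternative chosen after seeing the data, 3520 genes rose and 3193 fell, 18 listed genes rose and 4 type I targets rose.

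No called member changed sign under any alternative run, and 13 that were not called did. Ifit1 was at -0.0092 with RLE scaling, -0.0098 with DESeq2 and -0.00099 with the replicate block, Ifi27l2a at -0.0012 with RLE and -0.00091 with DESeq2, and Gbp9 at 0.011 with upper-quartile scaling. Without 1 library the log2 fold change ran from -0.25 to 0.22 for Ifit1, from -0.56 to 0.29 for Ifit3, from -0.036 to 0.46 for Ifit3b, from -0.13 to 0.10 for Gbp9, from -0.16 to 0.20 for Irgm2, from -0.24 to 0.13 for Irf7, from -0.041 to 0.13 for Ifih1, from -0.34 to 0.18 for Isg15, from -0.65 to 0.28 for Rsad2, from -0.030 to 0.079 for Bst2, from -0.16 to 0.17 for Ifi27l2a, from -0.022 to 0.24 for Rtp4 and from -0.21 to 0.10 for Parp14. The cause of these shifts was not tested. With 1 library left in a group, it is assumed to vary like the other group. The 2 libraries per group limit the precision.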
